A study of Mus musculus with 16 samples.

Results

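The secreted WNT antagonists measured here were *Sostdc1*, *Sfrp1*, *Sfrp2*, *Sfrp4*, *Sfrp5*, *Dkk1*, *Dkk2*, *Dkk3*, *Wif1* and *Frzb*, 10 of the 19938 genes that have a probe set of their own on the array. They were chosen by name, and each was read from the probe set that pairs with its symbol alone. Every one of the 10 has 1 such probe set, and all 10 had a signal above the minimum of 5 in all 16 samples. RNA came from mandibular first molar germs of *Rsk2-/Y* embryos and of WT embryos at E14.5, on a C57Bl6 background, with 8 samples of each genotype. Each sample is a pool of 4 tooth germs, which the study took from more than 1 embryo, and its WT controls were male littermates. The *Rsk2* knockout removes an exon in every cell, so a difference cannot be placed in 1 tissue of the germ. The sample names fall into the series AZN and ABH, each with 4 *Rsk2-/Y* and 4 WT samples, and what these names stand for is not given in the sources used here. Nothing states which pools share a litter, so p-values measure only the spread between these pools.

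WNT ligands signal through frizzled receptors and the co-receptors LRP5 and LRP6, and secreted antagonists block them outside the cell. The secreted frizzled-related proteins (the SFRP genes and *Frzb*) and WIF1 bind the WNT ligand itself, whereas DKK proteins and SOSTDC1 bind the co-receptors. In the molar, WNT signalling drives growth and the enamel knots, the signalling centres that place the cusps, and mice without *Sostdc1* form extra teeth in front of the first molar.

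*Rps6ka3*, which encodes RSK2, was at 10.1 ± 0.28 in *Rsk2-/Y* and 9.99 ± 0.23 in WT (log2 signal, SD, n = 8 each), and probes spread over the whole gene hardly check an excised exon. Markers of dental epithelium (16 genes measured) averaged 9.67 to 10.1 in the *Rsk2-/Y* samples and 9.88 to 10.4 in the WT samples. All 16 had log2 fold changes below 0, with a median of -0.21, and none passed the threshold used here, an adjusted p under 0.1 in limma with a fold change beyond 1.2. Those of dental mesenchyme (13 genes) averaged 10.6 to 11.0 in *Rsk2-/Y* and 10.7 to 10.9 in WT. Skeletal muscle markers (16 genes) ranged from 7.43 to 9.90 in *Rsk2-/Y* and from 7.51 to 9.02 in WT, and 15 of 16 had log2 fold changes above 0, with a median of 0.56. Osteoblast markers (7 genes) averaged 9.68 in *Rsk2-/Y* and 9.37 in WT, and 7 of 7 were above 0, with a median of 0.27. Of these lists no gene passed the threshold, and 60.3% of all genes tested had log2 fold changes below 0. The *Rsk2-/Y* samples ABH_14A and AZN_MolairesMutant3 had the highest muscle means, at 9.53 and 9.90. In pooled tissue, fewer cells of a type and less RNA per cell cannot be told apart.

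Promoter sequences from RefSeq (GRCm38.p6) matched 6 of the 10 antagonists. *Dkk1* and *Wif1* are shown because their signals correlated across pools in both series, at an unadjusted p only, and *Sfrp5* because it had the lowest p between genotypes. Each run is the 250 bases before the transcription start, 5′ to 3′ on the gene's strand, and capitals mark the TCF/LEF core CTTTGA or CTTTGT on either strand. *Dkk1* lies at chr19:30549497-30549746 on the minus strand, *Wif1* at chr10:121033754-121034003 on the plus strand and *Sfrp5* at chr19:42202253-42202502 on the minus strand.
Dkk1: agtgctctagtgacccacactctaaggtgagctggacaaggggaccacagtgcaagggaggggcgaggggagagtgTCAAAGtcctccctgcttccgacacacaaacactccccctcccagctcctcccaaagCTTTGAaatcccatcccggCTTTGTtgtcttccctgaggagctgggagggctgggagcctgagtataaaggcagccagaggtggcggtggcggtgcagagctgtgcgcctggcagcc
Wif1: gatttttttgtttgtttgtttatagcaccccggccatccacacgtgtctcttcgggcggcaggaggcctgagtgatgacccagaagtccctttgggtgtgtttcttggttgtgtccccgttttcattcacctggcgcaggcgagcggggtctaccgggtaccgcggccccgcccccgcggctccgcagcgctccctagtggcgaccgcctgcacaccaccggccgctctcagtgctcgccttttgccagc
Sfrp5: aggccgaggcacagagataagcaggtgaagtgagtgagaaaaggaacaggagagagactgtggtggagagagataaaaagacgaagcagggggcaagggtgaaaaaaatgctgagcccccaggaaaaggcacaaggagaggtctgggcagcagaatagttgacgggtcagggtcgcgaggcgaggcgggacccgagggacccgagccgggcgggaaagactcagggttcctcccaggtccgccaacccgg
The *Dkk1* promoter held 3 matches, which begin 174, 117 and 98 bases before the start. Neither the *Wif1* nor the *Sfrp5* window held one. *Dkk2* and *Frzb* had 1 match each, at 80 and 95 bases, and *Sfrp2* had none, so that 3 of 6 antagonist promoters held the core, beside 27.6% of all 32851 promoters of the same length. A match describes the letters only and is no evidence of binding.

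Whether loss of RSK2 changes the expression of the antagonists was asked by comparing the 8 *Rsk2-/Y* with the 8 WT samples. None of the 10 passed the threshold in the fit over all probe sets tested. Calls made up 0% of the 17215 genes tested in the higher and 0% in the lower direction. When unadjusted p-values under 0.05 were counted, *Sfrp5* was the 1 antagonist with a lower signal, beside 2.97% of all genes, and 0 antagonists had a higher one, beside 0.982%. The log2 fold change was below 0 for 7 of the 10 antagonists and for 60.3% of all genes. Its median was -0.042 over the antagonists and -0.016 over all genes.

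**Figure D1:**
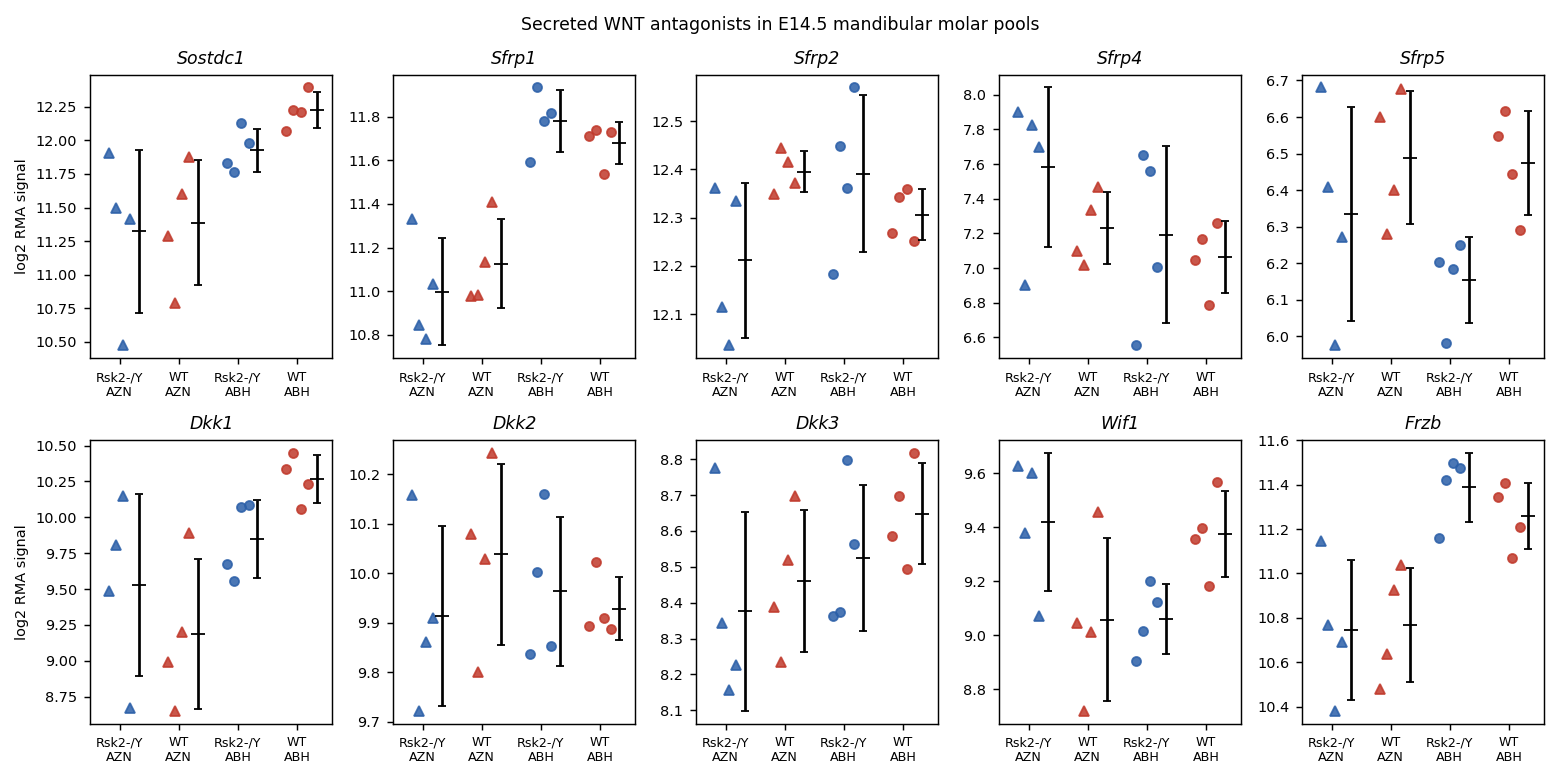
Log2 RMA signal of each antagonist in every sample, with *Rsk2-/Y* in blue, WT in red, AZN as triangles and ABH as circles. Horizontal ticks and bars give the mean and SD of 4 samples, and each panel has its own axis that does not start at 0. *Sfrp1* and *Frzb* lie lower in the AZN samples, while the genotypes overlap for all 10 genes over 16 samples.

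Of the antagonists that bind WNT ligands, *Sfrp5* (probe set 10467744, chromosome 19) had the lowest p between genotypes. In the AZN samples it was at 6.68, 6.41, 5.97 and 6.27 in *Rsk2-/Y*, against 6.60, 6.28, 6.40 and 6.68 in WT. In the ABH samples it was at 6.20, 5.98, 6.18 and 6.25 in *Rsk2-/Y*, against 6.55, 6.62, 6.44 and 6.29 in WT. In all, 7 of 8 *Rsk2-/Y* samples lay below the WT mean, and the groups overlapped in AZN but not in ABH. Its means were 6.24 ± 0.23 in *Rsk2-/Y* and 6.48 ± 0.15 in WT (SD, n = 8 each). The log2 fold change was -0.24 (SE 0.091, 95% confidence interval -0.43 to -0.046, unadjusted p = 0.0180, adjusted p = 0.9997, limma). The study listed *Sfrp5* among its most down-regulated genes in these same samples, with a larger fold change and past its thresholds. Here *Sfrp5* was 1.18-fold lower and did not pass those thresholds, so only the direction is shared. As the samples are the same, that direction is not independent evidence. The study processed the raw arrays with other software, and the reason for the gap was not tested. With the name series and the mean of the dental epithelium markers in the model, its log2 fold change was -0.077 (unadjusted p = 0.481, limma). Without both ABH_14A and AZN_MolairesMutant3 it was -0.19 (unadjusted p = 0.0703, limma). All 16 *Sfrp5* values, from 5.97 to 6.68, lay not far above the minimum signal of 5.

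*Sfrp4* (probe set 10403834, chromosome 13), which also binds WNT ligands, had a log2 fold change of 0.24 that did not pass any threshold (SE 0.17, 95% confidence interval -0.12 to 0.60, unadjusted p = 0.176, limma). It ranged from 6.55 through a median of 7.61 to 7.90 in *Rsk2-/Y* and from 6.78 through 7.13 to 7.47 in WT. The *Rsk2-/Y* samples spread more widely, with an SD of 0.50 against 0.21 in WT. The lowest value was that of ABH_14A, and without this sample the log2 fold change was 0.36 (unadjusted p = 0.0230, adjusted p = 0.9999, limma).

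*Sfrp1* (probe set 10570957, chromosome 8), *Sfrp2* (10492798, chromosome 3) and *Frzb* (10484307, chromosome 2) differed between genotypes by less than the spread between samples. *Sfrp1* had a median of 11.46 in *Rsk2-/Y* (10.78 to 11.93) and of 11.47 in WT (10.98 to 11.74). *Sfrp2* had a median of 12.35 in both, with a range of 12.03 to 12.57 in *Rsk2-/Y* and of 12.25 to 12.44 in WT. *Frzb*, a frizzled-related protein first described in cartilage, had a median of 11.15 in *Rsk2-/Y* (10.38 to 11.50) and of 11.05 in WT (10.48 to 11.41). The groups overlapped for all 3 genes. The 95% confidence intervals of the log2 fold changes were -0.39 to 0.36 for *Sfrp1*, -0.19 to 0.092 for *Sfrp2* and -0.30 to 0.41 for *Frzb*. In this fit, which leaves out the name series, the interval of *Sfrp2* bounds a change more tightly than those of *Sfrp1* and *Frzb*. The SE was 0.067 for *Sfrp2*, 0.18 for *Sfrp1* and 0.17 for *Frzb*. With the name series as a block it was 0.066, 0.085 and 0.10 (limma), so the gap in width was smaller.

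*Wif1* (probe set 10366653, chromosome 10) encodes an inhibitor that binds WNT ligands, and its genotype difference had opposite signs in the AZN and ABH samples, at an unadjusted p only. In AZN it was at 9.63, 9.38, 9.60 and 9.07 in *Rsk2-/Y*, against 9.04, 8.72, 9.01 and 9.46 in WT. In ABH it was at 8.90, 9.01, 9.20 and 9.12 in *Rsk2-/Y*, against 9.36, 9.40, 9.18 and 9.57 in WT. All 4 AZN *Rsk2-/Y* samples lay above their WT mean and all 4 ABH *Rsk2-/Y* samples lay below theirs, a pattern that 1.98% of all genes shared (340 of 17215). The log2 fold change was 0.36 in AZN (SE 0.16, unadjusted p = 0.0473, adjusted p = 0.9996) and -0.32 in ABH (SE 0.090, unadjusted p = 0.00583, adjusted p = 0.217), both from limma. Over all 16 samples it was 0.023 (SE 0.13). The genotype by series interaction, AZN minus ABH, was 0.68 (SE 0.20, 95% confidence interval 0.25 to 1.10, unadjusted p = 0.00365, adjusted p = 0.728, limma).

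Of the antagonists that bind LRP co-receptors, *Dkk1* (probe set 10467006, chromosome 19), an inhibitor needed for head formation, gave values of the same shape as *Wif1*. In AZN it was at 9.49, 9.81, 10.15 and 8.67 in *Rsk2-/Y*, against 8.99, 8.65, 9.20 and 9.89 in WT. In ABH it was at 9.68, 9.56, 10.07 and 10.09 in *Rsk2-/Y*, against 10.33, 10.45, 10.06 and 10.23 in WT. All 4 *Rsk2-/Y* samples were below the WT mean in ABH, and 3 of 4 were above it in AZN, with overlap in both. The log2 fold change was 0.35 in AZN (SE 0.32, unadjusted p = 0.300) and -0.42 in ABH (SE 0.13, unadjusted p = 0.00913, adjusted p = 0.237), both from limma. The interaction was 0.77 (SE 0.38, 95% confidence interval -0.040 to 1.57, unadjusted p = 0.0612, limma).

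*Sostdc1* (probe set 10395389, chromosome 12), which binds LRP co-receptors and BMP ligands, was lower in the ABH *Rsk2-/Y* samples at an unadjusted p only. In AZN it was at 11.91, 11.50, 10.47 and 11.41 in *Rsk2-/Y*, against 11.29, 10.79, 11.60 and 11.87 in WT. In ABH it was at 11.83, 11.76, 12.13 and 11.98 in *Rsk2-/Y*, against 12.07, 12.23, 12.22 and 12.39 in WT. The ABH groups overlapped through ABH_16A alone, at 12.13, which was above the lowest WT sample. The log2 fold change was -0.064 in AZN (SE 0.30) and -0.30 in ABH (SE 0.092, unadjusted p = 0.00857, adjusted p = 0.236, limma). Over all samples it was -0.18 (SE 0.24), and it was -0.017 without AZN_MolairesMutant3 and 0.25 (unadjusted p = 0.167, limma) with the name series and the epithelial marker mean in the model.

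*Dkk2* (probe set 10496125, chromosome 3) and *Dkk3* (10567010, chromosome 7), a DKK family member whose effect on WNT signalling is less settled, showed no difference beyond the spread between samples. *Dkk2* ranged from 9.72 through a median of 9.89 to 10.16 in *Rsk2-/Y* and from 9.80 through 9.97 to 10.24 in WT. *Dkk3* ranged from 8.16 through 8.37 to 8.80 in *Rsk2-/Y* and from 8.23 through 8.55 to 8.82 in WT. Both pairs of ranges overlapped over most of their length. The log2 fold changes were -0.045 for *Dkk2* (95% confidence interval -0.20 to 0.11) and -0.10 for *Dkk3* (-0.31 to 0.11).

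Within the series, *Sostdc1*, *Sfrp5*, *Dkk1* and *Wif1* were lower in the ABH *Rsk2-/Y* samples at an unadjusted p under 0.05, 4 of 10 antagonists beside 8.78% of all genes, and 0 were higher, beside 3.43%. In the AZN samples *Wif1* alone was higher and 0 antagonists were lower, each beside 1.39% of all genes. Non-overlapping ABH genotypes with *Rsk2-/Y* lower were seen for *Sfrp5* alone, beside 5.84% of all genes. None of these 5 differences passed the adjusted threshold. In the interaction, an unadjusted p under 0.05 was reached by *Wif1* with a positive term, beside 3.97% of all genes, and by *Sfrp2* with a negative one, beside 1.76%. *Sfrp2* had a log2 fold change of -0.18 in AZN and 0.085 in ABH, and its interaction of -0.27 (SE 0.12, unadjusted p = 0.0363, adjusted p = 0.731, limma) did not pass. The epithelial marker mean was 9.67 to 10.1 in *Rsk2-/Y* and 9.88 to 10.4 in WT in AZN. It was 9.96 to 10.1 in *Rsk2-/Y* and 10.2 to 10.4 in WT in ABH, with no overlap, and the part of this gap in the 4 ABH differences was not tested within ABH.

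**Figure D2:**
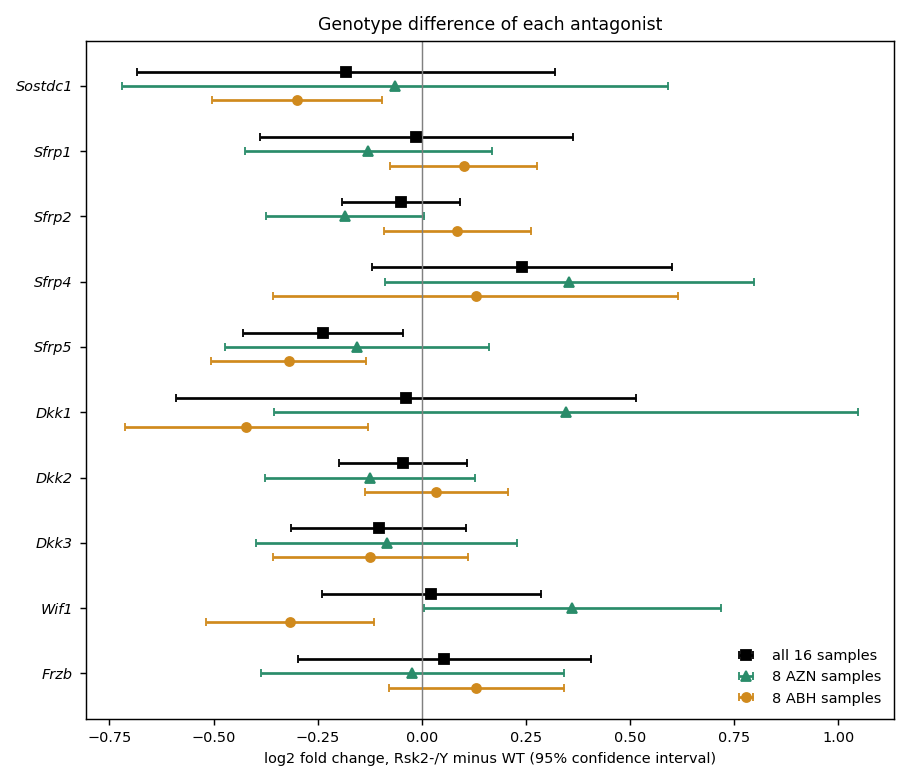
Log2 fold change of each antagonist between *Rsk2-/Y* and WT with its 95% confidence interval from limma, over all 16 samples (black), 8 AZN samples (green) and 8 ABH samples (orange). *Wif1* and *Dkk1* lie on opposite sides of 0 in AZN and ABH, at 0.36 and -0.32 for *Wif1* and at 0.35 and -0.42 for *Dkk1*.

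*Sostdc1*, *Sfrp1*, *Dkk1* and *Frzb* differed between the name series, while no antagonist passed between genotypes. With genotype as a covariate, these 4 of 10 were lower in the 8 AZN than in the 8 ABH samples past the threshold, beside 10.3% of all genes, and 0 were higher, beside 5.8%. *Sfrp1* was at 10.78 to 11.41 in AZN and 11.54 to 11.93 in ABH, so that the groups did not overlap, as was the case for 5.37% of all genes with AZN lower. It was 1.59-fold lower in AZN (log2 fold change -0.67, SE 0.085, adjusted p = 1.8e-05, limma).

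*Frzb* was at 11.15, 10.77, 10.38 and 10.69 in *Rsk2-/Y* and 10.48, 10.64, 10.92 and 11.04 in WT among the AZN samples. Among the ABH samples it was at 11.16, 11.42, 11.50 and 11.48 in *Rsk2-/Y* and 11.35, 11.41, 11.07 and 11.21 in WT. The brightest AZN sample lay above the dimmest ABH sample, and the log2 fold change was -0.57 (SE 0.10, adjusted p = 0.000389, limma). *Sostdc1* averaged 11.36 ± 0.50 in AZN and 12.08 ± 0.21 in ABH (SD, n = 8 each), which gave -0.72 for the log2 fold change (SE 0.17, adjusted p = 0.00308 from limma). *Dkk1* averaged 9.36 ± 0.57 in AZN and 10.06 ± 0.31 in ABH (SD, n = 8 each), which gave -0.70 for the log2 fold change (SE 0.21, adjusted p = 0.0133 from limma). For every antagonist the AZN samples had the larger SD, though for *Sfrp4* it was only 0.38 against 0.37 in ABH.

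*Sfrp2*, *Sfrp4*, *Sfrp5*, *Dkk2*, *Dkk3* and *Wif1* did not pass between the series, with log2 fold changes of -0.17 (*Dkk3*) to 0.28 (*Sfrp4*). The median over the 10 antagonists was -0.11 and that over all genes was 0.017. Muscle markers averaged 8.68 in AZN and 8.05 in ABH, and osteoblast markers averaged 9.68 in AZN and 9.37 in ABH. Mesenchyme markers averaged 10.84 in AZN and 10.92 in ABH, with a median log2 fold change of -0.058, and epithelial markers averaged 10.06 in AZN and 10.14 in ABH, with a median of -0.11. Of the 16 epithelial markers 4 were lower and 1 was higher in AZN past the threshold. Of the 13 mesenchyme markers 3 were lower and 1 was higher. Of the 16 muscle markers 7 were higher and 0 lower, with a median log2 fold change of 0.62. Of the 7 osteoblast markers 2 were higher and 0 lower, and of the 10 cartilage markers 1 was higher and 1 lower. These counts stand beside 5.8% of all genes higher and 10.3% lower. The part of these tissues in the series differences was not tested.

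**Figure D3:**
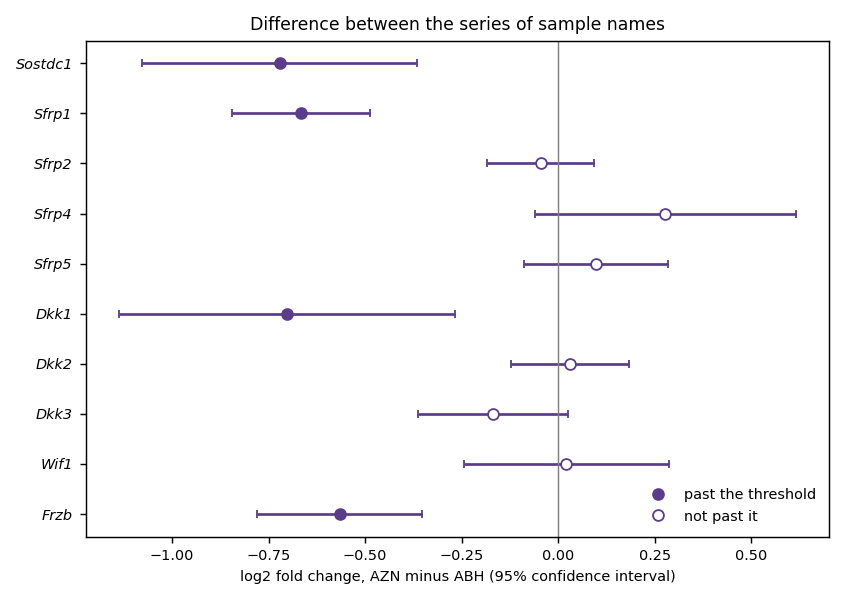
Log2 fold change of each antagonist between the 8 AZN and the 8 ABH samples with its 95% confidence interval from limma, genotype being a covariate. Filled points are past the threshold, namely *Sostdc1*, *Sfrp1*, *Dkk1* and *Frzb*, at -0.72, -0.67, -0.70 and -0.57.

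To place the antagonists among the tissues of the germ, each was set against the mean of 5 marker lists across the 8 samples of each series. These 100 relations were tested by exact permutation over 40320 arrangements, two-sided, and 19 had an unadjusted p under 0.05. Benjamini-Hochberg adjustment over the 100 kept 1 for r. It was *Frzb* with the mesenchymal markers in AZN, with Pearson's r = 0.966 (exact permutation p = 0.000248, adjusted p = 0.0248) and Spearman's rho = 0.905 (exact permutation p = 0.00456, adjusted p = 0.0913). In ABH the same relation had r = 0.891 (exact permutation p = 0.00243, adjusted p = 0.122) and rho = 0.976 (exact permutation p = 0.000397, adjusted p = 0.0397). Without the 2 samples farthest from the median marker mean, r was 0.934 in AZN and 0.938 in ABH.

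*Sfrp1* had r = 0.860 with the mesenchymal markers in AZN (rho = 0.929, exact permutation p = 0.00714 for r and 0.00223 for rho, adjusted p = 0.148 for r). In ABH it had r = 0.802 (rho = 0.857, exact permutation p = 0.0177 for r and 0.0107 for rho, adjusted p = 0.163 for r). Without the 2 farthest samples these were 0.749 in AZN and 0.525 in ABH, so the ABH value leans on them. *Sostdc1* had r = 0.837 with the epithelial markers in ABH (rho = 0.810, exact permutation p = 0.0105 for r and 0.0218 for rho, adjusted p = 0.148 for r), which was 0.840 without 2 samples, against r = 0.630 in AZN (rho = 0.405, exact permutation p = 0.0932 for r and 0.327 for rho). In AZN *Sostdc1* had r = 0.824 with the mesenchymal markers (rho = 0.833, exact permutation p = 0.0117 for r and 0.0154 for rho, adjusted p = 0.148 for r), which was 0.511 without 2 samples, so that this relation rests on them. In ABH that relation had r = 0.024 (rho = -0.143, exact permutation p = 0.957 for r and 0.752 for rho). With muscle markers in AZN, r was -0.761 for *Sostdc1* (exact permutation p = 0.0274) and -0.833 for *Sfrp5* (exact permutation p = 0.00913). In ABH these were -0.286 and -0.168 (exact permutation p = 0.501 and 0.689). *Dkk1* had r = 0.769 with osteoblast markers in AZN (exact permutation p = 0.00734) and -0.431 in ABH (exact permutation p = 0.290). *Wif1* had r = 0.741 with osteoblast markers in AZN (rho = 0.905, exact permutation p = 0.0196 for r and 0.00456 for rho, adjusted p = 0.163 for r) and 0.908 without 2 samples. In ABH the same relation had the opposite sign, with r = -0.585 (rho = -0.595, exact permutation p = 0.131 for r and 0.132 for rho). *Wif1* had r = 0.806 with epithelial markers in ABH (rho = 0.738, exact permutation p = 0.0163 for r and 0.0458 for rho, adjusted p = 0.163 for r) and 0.753 without 2 samples, against r = -0.215 in AZN (rho = -0.238, exact permutation p = 0.609 for r and 0.582 for rho). The values of *Wif1* thus placed it with neither the osteoblast nor the epithelial markers in both series. With the cartilage markers it had r = 0.744 in AZN (exact permutation p = 0.0364, adjusted p = 0.202) and 0.799 without 2 samples. In ABH the cartilage relation had the same sign, with r = 0.637 (exact permutation p = 0.0914). That value was -0.00097 without 2 samples and so rests on them.

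The arrangements above took no account of genotype, although in ABH the epithelial marker mean did not overlap between genotypes and *Sostdc1* and *Wif1* were lower in *Rsk2-/Y* at an unadjusted p only. With the mean of each genotype removed, a setting chosen after seeing the data, the r with epithelial markers in ABH was 0.542 for *Sostdc1* (exact permutation within genotype, p = 0.193) and 0.387 for *Wif1* (exact permutation p = 0.380). That of *Wif1* with osteoblast markers in AZN was 0.615 (exact permutation p = 0.109). With cartilage markers *Wif1* had 0.796 in AZN (exact permutation p = 0.0208) and 0.266 in ABH (exact permutation p = 0.656). *Sostdc1* had -0.921 with muscle markers in AZN (exact permutation p = 0.0156) and -0.101 in ABH (exact permutation p = 0.844). *Frzb* had r = 0.968 with the mesenchymal markers in AZN (exact permutation p = 0.00347) and 0.908 in ABH (exact permutation p = 0.00174). *Sfrp1* had 0.874 with them in AZN (exact permutation p = 0.00868) and 0.804 in ABH (exact permutation p = 0.0573). Of the 100 relations, 11 had an unadjusted exact permutation p under 0.05 and 0 an adjusted one (lowest 0.174). With 576 arrangements no exact permutation p here can go below 0.00174.

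**Figure D4:**
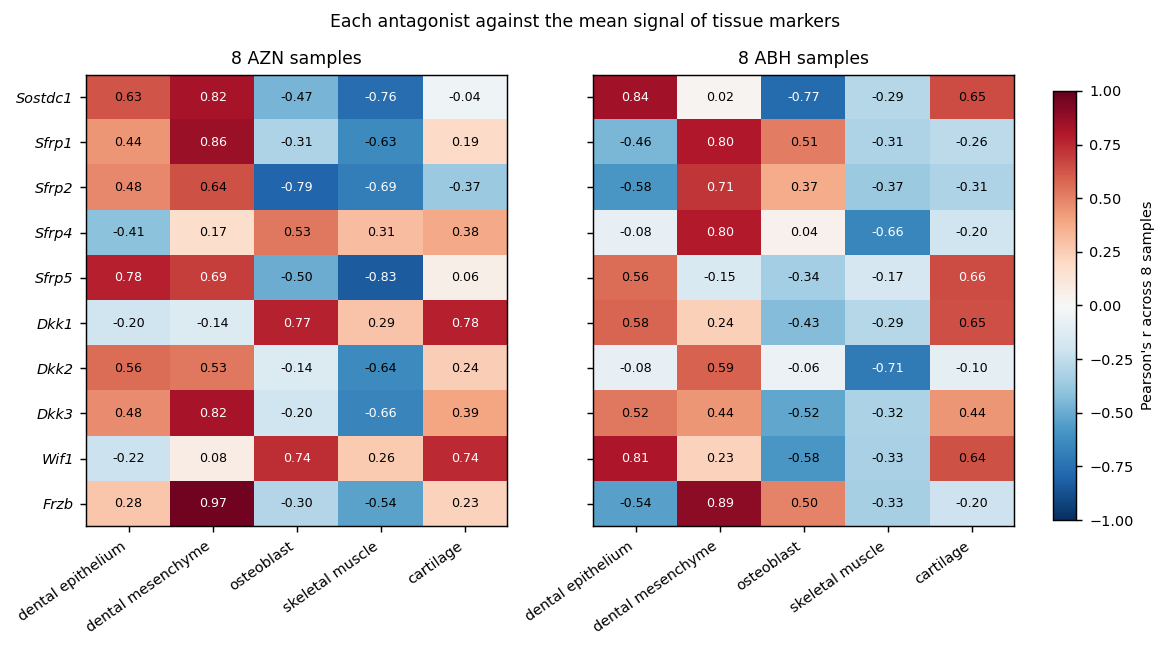
Pearson's r of each antagonist (rows) with the mean signal of each marker list (columns) across 8 AZN samples on the left and 8 ABH samples on the right, from -1 in blue to 1 in red. *Frzb* and *Sfrp1* have high values with dental mesenchyme in both panels, at 0.97 and 0.86 in AZN and at 0.89 and 0.80 in ABH.

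**Figure D5:**
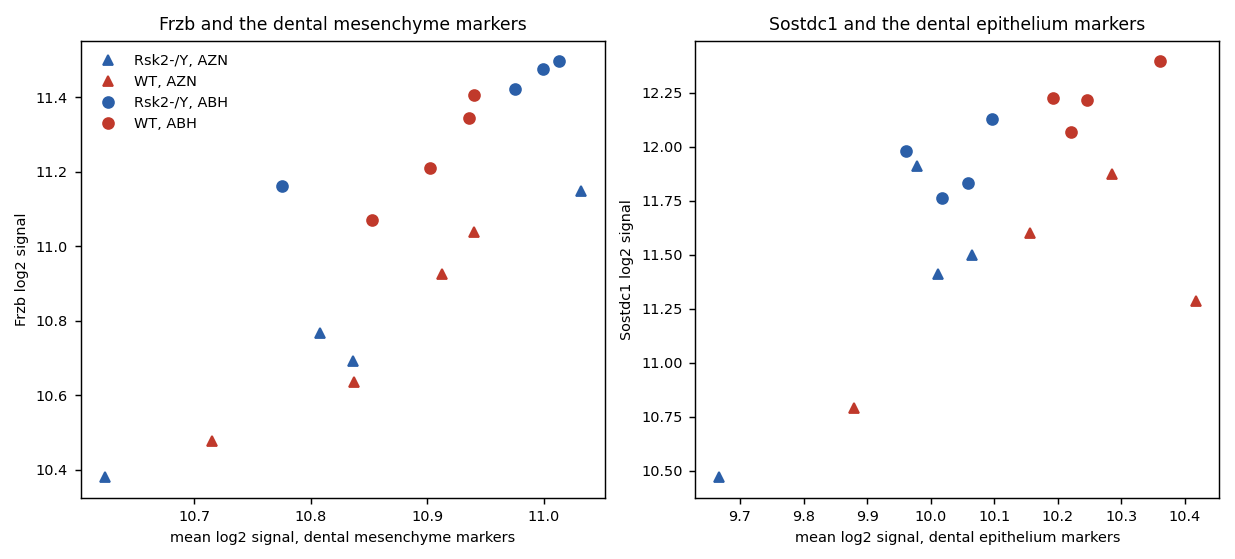
Log2 signal of *Frzb* against the mesenchymal marker mean on the left and of *Sostdc1* against the epithelial marker mean on the right, 1 point per sample, with *Rsk2-/Y* in blue, WT in red, AZN as triangles and ABH as circles. *Frzb* is higher in samples with more mesenchymal marker signal in each series, and AZN_MolairesMutant3 is the lowest point of both panels, at 10.38 for *Frzb* and 10.47 for *Sostdc1*.

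The antagonists were also set against each other, 90 relations over both series, of which 23 had an unadjusted exact permutation p under 0.05 and 0 an adjusted p for r under 0.05 (lowest 0.0710). *Dkk1* and *Wif1* had r = 0.856 in AZN (rho = 0.762, exact permutation p = 0.0110 for r and 0.0368 for rho, adjusted p = 0.0761 for r) and 0.740 without 2 samples. In ABH they had r = 0.839 (rho = 0.833, exact permutation p = 0.0102 for r and 0.0154 for rho, adjusted p = 0.0761 for r) and 0.661 without 2 samples. *Sfrp1* and *Frzb* had r = 0.859 in AZN (rho = 0.833, exact permutation p = 0.00776 for r and 0.0154 for rho) and 0.829 in ABH (rho = 0.881, exact permutation p = 0.00789 for r and 0.00724 for rho), each with an adjusted p of 0.0710 for r. Without 2 samples r was 0.650 in AZN and 0.844 in ABH. *Sostdc1* and *Dkk3* had r = 0.855 in AZN (rho = 0.881, exact permutation p = 0.00890 for r and 0.00724 for rho, adjusted p = 0.0729 for r) and 0.906 without 2 samples. In ABH they had r = 0.814 (rho = 0.786, exact permutation p = 0.0161 for r and 0.0279 for rho, adjusted p = 0.0854 for r) and 0.617 without 2 samples. In AZN *Sostdc1* also had r = 0.875 with *Frzb* (rho = 0.976, exact permutation p = 0.00481 for r and 0.000397 for rho, adjusted p = 0.0710 for r and 0.0357 for rho) and 0.971 without 2 samples. In ABH this pair had r = -0.244 (rho = -0.238, exact permutation p = 0.553 for r and 0.582 for rho), with the opposite sign. Over all 90 relations, r was below 0 in 20. With genotype means removed, 14 had an unadjusted p under 0.05 (exact permutation within genotype) and 0 an adjusted one (lowest 0.219). *Dkk1* and *Wif1* then had r = 0.873 in AZN (exact permutation p = 0.0156) and 0.626 in ABH (exact permutation p = 0.132). These pairs share the same 8 samples of a series, and therefore the tissue makeup of each pool.

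Among 16678 genes, those whose signals were most like each antagonist over the 16 samples, after the mean of each genotype and series was removed, were named by the highest Pearson's r. As the highest of many values these are a description. The deviations were not scaled, so groups with more scattered samples weigh more. For *Sostdc1* the SD was 0.61 in AZN and 0.16 in ABH *Rsk2-/Y*, and 0.47 in AZN and 0.13 in ABH WT (n = 4 each). *Frzb* was most like *Loxl1*, a collagen cross-linking enzyme (r = 0.98), *Pdgfrb*, a receptor of mesenchymal and perivascular cells (0.97), and *Fzd1*, a WNT receptor (0.96). *Sostdc1* was most like *St6galnac2*, a sialyltransferase (0.96), *Diras2* (0.96) and *Tbx1*, a transcription factor of dental epithelium (0.94). *Sfrp1* was most like *Cyba* (0.96), *Cybrd1* (0.96) and *Stk4* (0.95). *Sfrp5* was most like *Cdc20* (0.92) and *Cdca2* (0.91), both of mitosis, and *Blmh* (0.89). *Dkk1* was most like *Dbn1* (0.94), *Fam169b* (0.91) and *Chac1* (0.89), and *Wif1* was most like *Nat8l* (0.92), *Leng9* (0.91) and *Anxa11* (0.91). No antagonist was among the 3 genes most like another. For the other four, the genes ranked first were *Syt9* for *Sfrp4* (0.95), *Specc1l* for *Dkk2* (0.94), *Plau*, the urokinase, for *Dkk3* (0.93) and *Tonsl* for *Sfrp2* (0.91).

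The rest of the pathway gave no genotype call either. Over all genes tested, 60.3% had a log2 fold change below 0. At an unadjusted p under 0.05 in limma, 2.97% of all genes were lower and 0.982% were higher. The 6 other secreted inhibitors measured (*Dkk4*, *Sost*, *Notum*, *Cer1*, *Draxin* and *Dkkl1*) all had log2 fold changes below 0, from -0.19 for *Dkk4*, a DKK gene of epithelial placodes, to -0.018 for *Draxin*. None of the 6 had an unadjusted p under 0.05 over all samples. The 5 receptors of DKK proteins and SOSTDC1 (*Lrp4*, *Lrp5*, *Lrp6*, *Kremen1* and *Kremen2*) lay between -0.049 and 0.030. Of 13 frizzled and related receptors 8 were below 0, and *Fzd6* had a log2 fold change of -0.19 (unadjusted p = 0.0165, limma). Of 19 WNT ligands 15 were below 0, with a median of -0.041, among them the epithelial ligands *Wnt7b* (-0.24, unadjusted p = 0.0492) and *Wnt10a* (-0.21, unadjusted p = 0.00964, limma).

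Of 9 genes of the R-spondin axis, which sets the level of WNT receptors at the cell surface, 6 were below 0, and *Rnf43*, a ligase that removes frizzled receptors, had a log2 fold change of -0.19 (unadjusted p = 0.0357, limma). Of 9 WNT target genes measured 6 were also below 0. Both counts stand beside the 60.3% of all genes below 0. The target *Axin2*, the usual readout of the pathway, had a log2 fold change of -0.018 (SE 0.088). *Ccnd1*, cyclin D1, was at -0.21 (unadjusted p = 0.00474, adjusted p = 0.911) and *Tnfrsf19*, a receptor also named *Troy*, at 0.16 (unadjusted p = 0.00934, adjusted p = 0.998), both from limma. Of 8 BMP genes 4 were below 0 and none had an unadjusted p under 0.05. The lowest adjusted p among these lists was that of *Ccnd1*.

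Lower signals in the ABH *Rsk2-/Y* samples were also seen in the other lists, beside the 8.78% of all genes with an unadjusted p under 0.05 in that direction. They were found for 2 of the 6 other secreted inhibitors, *Dkkl1* at a log2 fold change of -0.22 (unadjusted p = 0.00126) and *Dkk4* at -0.23 (unadjusted p = 0.0223), both from limma. They were also found for 9 of the 19 WNT ligands, 3 of the 8 BMP genes, 2 of the 9 WNT targets, 1 of the 9 genes of the R-spondin axis, 1 of the 5 receptors of DKK proteins and SOSTDC1 and 0 of the 13 frizzled and related receptors. Among the marker lists they were found for 12 of the 16 genes of dental epithelium and 0 of the 13 of dental mesenchyme. No gene of the WNT and BMP lists was higher at that p, and none of these differences passed the adjusted threshold.

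Between the series, the same lists held calls in both directions, beside 5.8% of all genes higher in AZN and 10.3% lower. Among the receptors, *Fzd8* (0.56) and *Fzd9* (0.55) were higher in AZN, while *Fzd7* (-0.49), *Fzd1* (-0.40), *Ror2* (-0.31) and the SOSTDC1 partner *Lrp4* (-0.28) were lower. Of 19 ligands 5 were higher, beside the same 5.8%, from *Wnt9b* (0.28) to *Wnt16* (0.54), and 0 were lower. *Rspo4* (-0.66), *Rspo1* (-0.38) and *Rspo3* (-0.31) were lower, as were *Bmp4* (-0.64) and *Bmp7* (-0.37), which encode ligands, and the homeobox gene *Msx2* (-0.64), a BMP target. None of the 9 WNT targets and none of the 6 other secreted inhibitors passed. The adjusted p-values of these calls ran from 1.3e-05 for *Bmp4* to 0.0389 for *Rspo3* (limma).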

How the data were processed

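RNA from 16 pools of molar germs was hybridized to Affymetrix Mouse Gene 1.0 ST arrays, starting from 150 ng as the labels state. The study's methods give a larger amount, and the sources do not settle which was used. The authors deposited log2 signals per probe set, made with RMA in Affymetrix Expression Console 1.3.1.187 (submitters' processing notes). RMA subtracts background, brings all arrays to 1 distribution and combines the probes of a probe set, and no further normalization was applied. Array medians ran from 6.74 to 6.94. The precision of each value is limited by the number of arrays. Of 35556 probe sets, 21789 pair with 1 gene symbol in the platform annotation, and the 18834 of these with a signal above 5 in at least 1 sample were tested. Counts over all genes use the brightest probe set of each of 17215 genes.

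Groups came from the genotype labels. limma 3.58.1 in R 4.3.3 (lmFit, eBayes, two-sided) gave fold changes and Benjamini-Hochberg adjusted p-values over the 18834, and a gene was called at the study's thresholds, an adjusted p under 0.1 with a change of more than 1.2-fold. Correlations used exact permutation tests within each series in Python 3.11.15 with NumPy 2.4.6 and pandas 2.3.3, and figures used matplotlib 3.10.9. Every antagonist, genes of the other WNT lists past the threshold or at an unadjusted p under 0.05, and the 3 genes most like each antagonist were to be named. Beyond these, *Axin2* and all genes of the 2 shortest lists were named after their values were seen. The antagonists, lists and tests were chosen with earlier results of these data known. Other normalization, filters, covariates, weights, tests and sample sets were tried as alternatives. The fits were tested on simulated data with known changes. The raw arrays were not used here.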

Additional observations from a re-analysis of the deposited data

Results flagged for a closer look

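In 4 of 60 groups of 4 or 8 samples, 1 sample lay far from the others by Dixon's criterion. Chance meets it in about 1 in 20 separate groups drawn from 1 normal population. The groups here overlap, and those of 8 join AZN and ABH samples, so this rate need not hold. *Sostdc1* and *Dkk1* were flagged among the 8 *Rsk2-/Y* samples and not within the 4 of AZN. *Sostdc1* was at 10.47 in the *Rsk2-/Y* sample AZN_MolairesMutant3, and the next lowest *Rsk2-/Y* sample was at 11.41. That sample had the lowest epithelial marker mean (9.67) and the highest muscle (9.90) and osteoblast (10.5) marker means of all 16. *Dkk1* was at 8.67 in the *Rsk2-/Y* sample AZN_MolairesMutant4, and the next lowest was at 9.49. *Sfrp1* was at 11.54 in ABH_13A, below the other 3 ABH WT samples, which began at 11.71. *Dkk2* was at 10.02 in ABH_12A, above the other 3 ABH WT samples, which ended at 9.91.

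The genotype difference of *Wif1* ran in opposite directions in AZN and ABH, with an interaction of 0.68 on the log2 scale (unadjusted p = 0.00365, adjusted p = 0.728, limma), as 4 of 4 *Rsk2-/Y* samples were above the WT mean in AZN and 4 of 4 were below it in ABH. The difference does not pass after adjustment over all probe sets.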

How the results depend on the processing

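No antagonist passed the genotype threshold under any of 28 alternatives, or the interaction threshold under any of 22. *Sostdc1*, *Sfrp1*, *Dkk1* and *Frzb* were called lower in AZN under all 22 alternatives, and *Sfrp4* was also called, as higher, without AZN_MolairesMutant1. The count of antagonists at an unadjusted genotype p under 0.05, 1 over all samples, was 4 with the ABH samples only, 0 with the name series and the epithelial marker mean as covariates and 0 without both ABH_14A and AZN_MolairesMutant3. With each sample left out in turn it was 1 to 2, with 2 without ABH_14A. In the AZN samples alone it was also 1, with *Wif1* in place of *Sfrp5*. Of 280 alternative fold changes of single antagonists, 246 kept their sign. Part of these came from other filters, other tests or balanced blocks, which cannot change a fold change here, so their sign was fixed in advance. The remaining 34 changed sign. With the epithelial covariate, *Sostdc1* was at 0.25, *Sfrp1* at 0.064, *Dkk2* at 0.052 and *Dkk3* at 0.035. In ABH alone, *Sfrp1* was at 0.10, *Sfrp2* at 0.085, *Dkk2* at 0.035 and *Wif1* at -0.32, and in AZN alone *Dkk1* was at 0.35 and *Frzb* at -0.022. With array weights, *Sfrp2* was at 0.025 and *Wif1* at -0.12, and without both doubted samples *Sfrp1* was at 0.054 and *Sfrp2* at 0.015. The cause was not tested. With 1 sample left out in turn, *Sfrp1* ran from -0.091 to 0.073, *Dkk1* from -0.19 to 0.11, *Wif1* from -0.048 to 0.073 and *Frzb* from -0.022 to 0.15. The other antagonists kept their sign, namely *Sostdc1* (-0.33 to -0.017), *Sfrp5* (-0.30 to -0.20), *Sfrp4* (0.17 to 0.36), *Sfrp2* (-0.088 to -0.0115), *Dkk2* (-0.077 to -0.0078) and *Dkk3* (-0.15 to -0.062). Each antagonist has 1 probe set, so no other probe set could be tried. A replicate block from the numbers 1 and 3 in the AZN names gave 0 calls and 1 antagonist at an unadjusted p under 0.05. The labels do not say that these numbers pair samples, and deviations of same-numbered samples correlated at -0.034 and -0.013 across genes. Those of the unnumbered AZN samples, which the block did not pair, correlated at 0.68. With genotype means removed, an alternative chosen after seeing the data, the relation of *Frzb* with the mesenchymal markers in AZN had an adjusted p of 0.174 (exact permutation) in place of 0.0248.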

Other observations

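The AZN samples without a number, 1 of each genotype, were the brightest of their group of 4 for most antagonists. AZN_MolairesMutant was the highest AZN *Rsk2-/Y* sample for 9 of 10 antagonists, *Dkk1* being the exception, and for 37.5% of all genes tested. AZN_MolairesWT was the highest AZN WT sample for 9 of 10 antagonists, *Sfrp2* being the exception, and for 36.0% of all genes tested. Their deviations from the group means correlated at 0.68 across genes, which are not independent replicates. The 10 antagonists were read on the same arrays and are not separate observations.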
